A study of Drosophila melanogaster with 30 samples.

Results

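The comparison described here asks what the food of the grandparents left in the RNA of adult male flies that were themselves raised on rich food by rich-raised parents. It sets 3 arrays of F0-Poor_F1-Rich_F2-Rich males (called P-R-R, for the foods of F0, F1 and F2) against 3 arrays of F0-Rich_F1-Rich_F2-Rich males (R-R-R), 6 of the 30 arrays of the series, over all 15309 probe sets. Both groups are adult virgin males of the fruit fly Drosophila melanogaster, of a stock that goes back to wild-caught flies, and both developed on rich food, as did their F1 parents. The food on which F0 developed is the one difference the labels give. The other 24 arrays belong to 8 further diet histories with 3 arrays each, among them F0-Poor_F1-Rich_F2-Poor (P-R-P) and F0-Rich_F1-Rich_F2-Poor (R-R-P) males, F0-Poor_F1-Rich (P-R) and F0-Rich_F1-Rich (R-R) males, and F0-Poor and F0-Rich (P and R) males. The body part, the age of the flies, the composition of the foods, the sex of the ancestor that carried the history and the number of flies in a sample were not stated in the labels. Nothing there says that replicates came from separate cultures, so that p-values measure only how far these samples scatter, and that scatter may be technical.

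Flies digest food in the midgut, where serine proteases of the Jonah and trypsin families, carboxypeptidases, amylases and maltases are secreted, and the amount of these enzymes is known to follow the protein and sugar in the diet. Nutrients then act through insulin and TOR signalling in the fat body, the organ that stores fat and glycogen and also secretes antimicrobial peptides. Cytochrome P450s, glutathione S-transferases and UDP-glycosyltransferases clear compounds taken up with the food. In RNA from a mixed tissue source, fewer cells of a type and less RNA per cell cannot be told apart.

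All values are the deposited GCRMA values, 1 per probe set and array, on a scale taken as log2, and differences are P-R-R minus R-R-R on that scale. Array medians ran from 0.82 to 0.94 over the 6 arrays, and values below 2 were treated as dim. Values per array are given for replicates 1, 2 and 3 in that order. The correlation over probe sets was 0.982 between P-R-R replicates 1 and 3 and 0.976 to 0.981 between R-R-R arrays, but only 0.948 to 0.951 between P-R-R replicate 2 and the other 5 arrays.

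P-R-R replicate 2 carried transcripts of the ovary. Yp2, which encodes a yolk protein, had values of 0.12, 9.05 and 0.51 on the P-R-R arrays and 0.31, 0.81 and 0.28 on the R-R-R arrays, so that 1 array stood far above the other 5. Yp1 read 0.24, 6.57 and 0.54 on the P-R-R arrays and 0.35, 0.71 and 0.50 on the R-R-R arrays. Yp3 read 0.66, 7.0 and 0.61 on the P-R-R arrays and 1.10, 0.95 and 0.87 on the R-R-R arrays. The same array was the highest of the 6 for 18 of 21 eggshell and follicle cell genes and for 24 of 32 genes of the ovarian germ line. The eggshell list averaged 0.34, 2.21 and 0.45 on the P-R-R arrays and 0.35, 0.40 and 0.34 on the R-R-R arrays. The germ line list averaged 1.22, 2.45 and 1.17 on the P-R-R arrays and 1.12, 1.23 and 1.20 on the R-R-R arrays. One other array of the series, replicate 2 of F0-Rich_F1-Poor, had high yolk and eggshell levels as well (means of 6.21 and 2.58), while the remaining 28 lay between 0.29 and 0.95 for yolk proteins and between 0.30 and 0.45 for eggshell genes.

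Genes of the male reproductive tract were expressed on every one of the 6 arrays, including the one with ovary transcripts. The 63 testis genes averaged 3.60, 3.18 and 3.5 on the P-R-R arrays and 3.55, 3.41 and 3.44 on the R-R-R arrays, and the 59 seminal fluid genes 5.14, 4.85 and 5.02 on the P-R-R arrays and 5.18, 4.98 and 5.01 on the R-R-R arrays. P-R-R replicate 2 was the lowest of the 6 in both. All 9 Y-linked fertility genes were dim, with group means under 2.

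Most of the large positive differences were found only with the ovary array included. A mean difference of at least 1 was found for 77 probe sets higher and 12 lower in P-R-R with all arrays, of which 9 of the 77 and 11 of the 12 were still past 1 without replicate 2. Yp2 then differed by 2.76 ± 1.54 (SE) with all arrays and by -0.15 ± 1.17 without replicate 2. Vml, a vitelline membrane gene, differed by 1.67 ± 0.76 and 0.22 ± 0.57, and me31B, which encodes an RNA helicase that represses maternal messages, by 1.15 ± 0.48 and 0.24 ± 0.36. Most differences of single genes and counts and medians of lists below are therefore given with all 6 arrays and again without P-R-R replicate 2. Where 1 value stands and no setting is named, it is with all arrays.

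**Figure D1:**
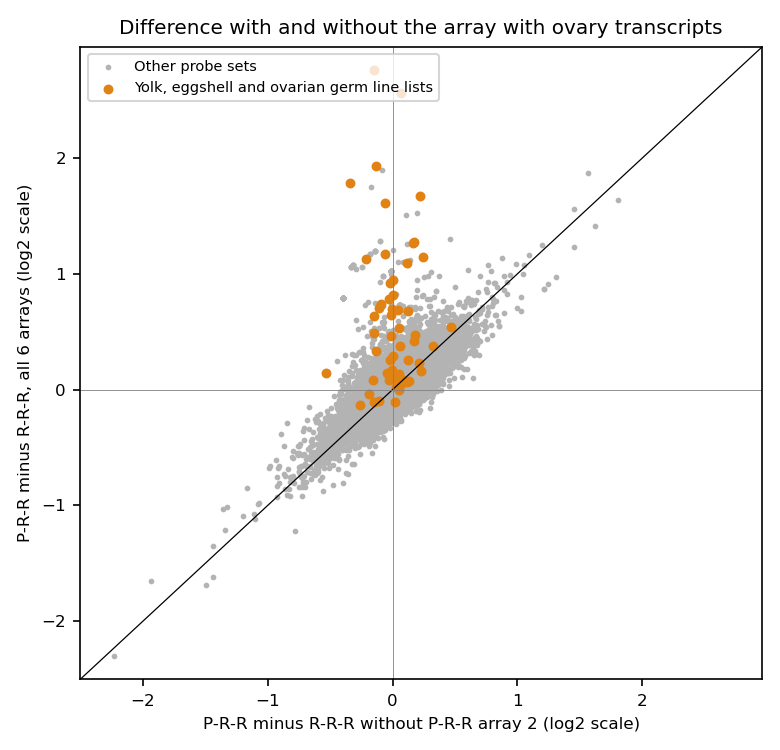
Difference between P-R-R and R-R-R males for each of the 15309 probe sets, on the log2 scale, without P-R-R replicate 2 (horizontal) and with all 6 arrays (vertical), with genes of the yolk, eggshell and ovarian germ line lists in orange and the line of equality in black. The ovary genes, Yp2 at 2.76 above all, stand high on the vertical axis and near 0 on the horizontal one.

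No probe set passed the test of grandparental food in rich-raised males. Limma called 0 of 15309 probe sets (0%) at an adjusted p under 0.05, with a lowest adjusted p of 0.0988, and 0 again without P-R-R replicate 2 (0%), with a lowest adjusted p of 0.203. At an unadjusted p under 0.05 there were 1312 probe sets, 755 higher (4.93%) and 557 lower (3.64%) in P-R-R. Without replicate 2 there were 1037, 566 higher (3.7%) and 471 lower (3.08%). The median standard error of a difference was 0.16 with all arrays and 0.18 without that array. The count of calls depended on single arrays. It was 9 without P-R-R replicate 3, 4 without R-R-R replicate 2 and 1 when only the 12 F2 arrays were fitted, and 0 without any of the other 4 arrays of the 2 groups. The 9 included the digestive enzyme genes CG12374, Jon65Aiii, Jon65Aiv and Jon25Bii as well as CG4757, the 4 included Cyp6g2, and the 1 was CG6283.

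Since nothing passed with all arrays, the genes below are described by their values on each array and by whether the 2 groups overlapped. Over all probe sets, all 3 P-R-R arrays lay above all 3 R-R-R arrays for 4.92% and below them for 4.69%, and a list's share is to be read against these 2 numbers. Without replicate 2 the 2 remaining P-R-R arrays lay above the 3 R-R-R arrays for 9.81% and below them for 9.14%. Differences above 0 made up 51% of all with every array and 49.4% without replicate 2, and differences below 0 made up 48.6% and 50.6%. Of the 20 genes with the lowest p in either direction without replicate 2, 10 a side, 18 had groups that did not overlap on the 6 arrays. These 20 were chosen by this difference, so their separation is a description.

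**Figure D2:**
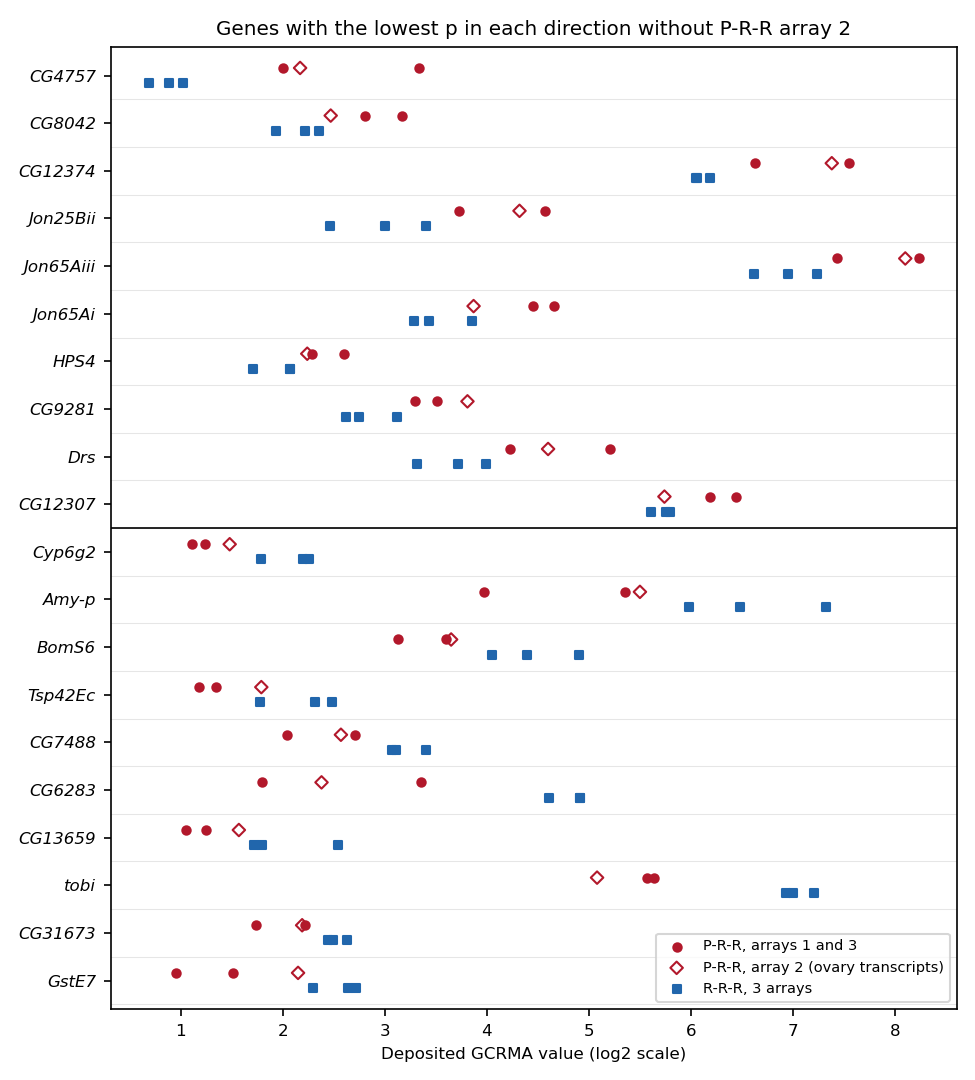
Deposited values on the log2 scale of the 10 genes with the lowest p higher in P-R-R (upper part) and the 10 lower in P-R-R (lower part), chosen without P-R-R replicate 2, for P-R-R arrays (red, with replicate 2 as an open diamond) and R-R-R arrays (blue squares). Replicate 2 lies with its group for most genes, and for Jon65Ai its value (3.87) comes within 0.02 of an R-R-R array.

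Digestive proteases were the most separated group on the higher side. Of 14 Jonah protease genes, which encode secreted midgut serine proteases, 6 (42.9%) were higher on all 3 P-R-R arrays than on any R-R-R array and 0 were lower on all 3. Without replicate 2, 6 were higher and 1 was lower without overlap. The median difference of the 14 was 0.82 with all arrays and 0.72 without replicate 2, against 0.01 and -0.00 over all probe sets, and 12 of the 14 differences were above 0 in both cases. Without R-R-R replicate 2 the median was 0.53. The mean level of the 14 genes was 4.59 ± 0.25 in P-R-R and 4.01 ± 0.03 in R-R-R males (SD, n = 3 each). Close paralogs of this family can share probe sequence, so the genes are not independent readings.

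Jon25Bii read 4.57, 4.32 and 3.73 on the P-R-R arrays and 3.0, 3.40 and 2.46 on the R-R-R arrays, a difference of 1.25 ± 0.26 (SE, limma adjusted p = 0.0990). Without replicate 2 it was 1.20 ± 0.29 (adjusted p = 0.317). The arrays of P-R-R spanned 0.84 and those of R-R-R 0.94, with a gap of 0.33 between the groups.

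Jon65Aiii was brighter, at 8.23, 8.10 and 7.43 on the P-R-R arrays and 7.24, 6.95 and 6.62 on the R-R-R arrays. Its difference was 0.98 ± 0.20 with all arrays (limma adjusted p = 0.0988) and 0.89 ± 0.22 without replicate 2. In both groups replicate 3 was the lowest. Jon65Ai read 4.66, 3.87 and 4.45 on the P-R-R arrays and 3.85, 3.43 and 3.29 on the R-R-R arrays, so the ovary array lay only just above the highest R-R-R array. The difference was 0.80 ± 0.25, and 1.03 ± 0.27 without that array. Jon65Aiv and Jon44E, named after their values were seen, differed by 0.92 ± 0.21 and 0.84 ± 0.30 with all arrays and by 0.82 ± 0.23 and 0.69 ± 0.33 without replicate 2. Jon25Biii, another midgut member, differed by 0.35 with all arrays and 0.45 without replicate 2, and its groups overlapped.

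CG12374, a gene of the zinc carboxypeptidase family, which removes amino acids from the end of peptides, showed the same order. It read 7.55, 7.38 and 6.63 on the P-R-R arrays and 6.05, 6.19 and 6.06 on the R-R-R arrays, a difference of 1.09 ± 0.22 (limma adjusted p = 0.0988), or 0.99 ± 0.24 without replicate 2. The 3 R-R-R arrays lay within 0.14 of each other. Npc2d, of a family of sterol-binding proteins, read 5.80, 5.64 and 5.15 on the P-R-R arrays and 4.08, 4.98 and 4.55 on the R-R-R arrays, and differed by 0.99 ± 0.30 and by 0.94 ± 0.34 without replicate 2. Its groups were 0.17 apart at the closest. A wider list of 35 digestive genes held the Jonah proteases, Try and Ser genes and the Npc2 family, which are not proteases. In it 8 (22.9%) were higher on all 3 P-R-R arrays, 6 of them Jonah genes and 1 of them Npc2d, and 1 was lower. Without replicate 2, 8 were higher and 2 lower without overlap. The median there was 0.12, and 0.21 without replicate 2, and genes outside the Jonah family lay closer to 0. Of 9 trypsin-like Try genes, 1 was higher and 0 were lower without overlap, and their median was -0.06 without replicate 2.

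Genes that digest starch and sugars lay on the other side. Of 10 maltase genes, which encode the enzymes that split maltose and sucrose in the gut, 5 (50%) were lower on all 3 P-R-R arrays than on any R-R-R array and 0 were higher, with the same counts without replicate 2. Their median difference was -0.78 with all arrays and -0.63 without replicate 2, and 9 of the 10 differences were below 0 in both. The mean level of the 10 genes was 3.27 ± 0.34 in P-R-R and 3.86 ± 0.06 in R-R-R males (SD, n = 3 each). The 5 were Mal-A1, Mal-A6, Mal-A7, Mal-A8 and Mal-B1, of which all but Mal-B1 were named after their values were seen. Mal-A7 read 6.17, 5.72 and 6.41 on the P-R-R arrays and 6.94, 7.03 and 7.08 on the R-R-R arrays (difference -0.92 ± 0.34, and -0.73 ± 0.38 without replicate 2). Mal-A1 read 6.57, 5.80 and 5.86 on the P-R-R arrays and 6.83, 7.05 and 6.88 on the R-R-R arrays (difference -0.84 ± 0.30, and -0.70 ± 0.33 without replicate 2). For both genes the R-R-R arrays lay close together and the P-R-R arrays were spread more widely. The Mal-A genes are neighbours and close copies, so cross-hybridisation between them was not separated.

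Amy-p, one of the near-identical pair of amylase genes that break down starch, had a difference of -1.65 ± 0.39 (limma adjusted p = 0.226) with all arrays and -1.93 ± 0.43 (adjusted p = 0.317) without replicate 2. It read 3.97, 5.5 and 5.35 on the P-R-R arrays and 7.32, 5.98 and 6.48 on the R-R-R arrays. The ranges were wide in both groups and did not overlap. Amyrel, an amylase-related gene named after its values were seen, was dim, at 0.61, 0.58 and 0.76 on the P-R-R arrays and 1.39, 1.44 and 1.36 on the R-R-R arrays (difference -0.75 ± 0.20, and -0.71 ± 0.23 without replicate 2).

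The gene tobi, named as a target of brain insulin, encodes an alpha-glucosidase-like protein and is known in flies to be raised by dietary protein and lowered by dietary sugar. It read 5.64, 5.08 and 5.57 on the P-R-R arrays and 7.21, 7.0 and 6.93 on the R-R-R arrays. The difference was -1.62 ± 0.32 (limma adjusted p = 0.0988), and -1.44 ± 0.35 (adjusted p = 0.317) without replicate 2. The P-R-R arrays spanned 0.56 and the R-R-R arrays 0.28, and the gap between the groups was 1.29. The gene fbp encodes fructose-1,6-bisphosphatase, a step of gluconeogenesis, and read 2.21, 2.44 and 1.24 on the P-R-R arrays and 2.73, 2.45 and 2.75 on the R-R-R arrays, where the closest pair of arrays differed by 0.01. Its difference was -0.68 ± 0.28, and -0.92 ± 0.30 without replicate 2. In the list of 40 carbohydrate genes as a whole, 11 (27.5%) were lower without overlap and 1 was higher, and the median was -0.15. Without replicate 2, 12 were lower and 4 higher, with a median of -0.12. Apart from amylases, maltases and tobi the list showed less: of 26 genes of glycolysis and the remaining steps, 3 (11.5%) were lower without overlap and 1 was higher, with a median of -0.10. Without replicate 2, 3 were lower and 4 higher, with a median of -0.01.

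The 40 genes of lipid metabolism lay near the middle of all probe sets, with a median of 0.06, or 0.02 without replicate 2. With all arrays 3 (7.5%) were higher and 1 was lower without overlap, and without replicate 2 there were 4 higher and 2 lower. The 4 members with the widest differences without replicate 2, picked for that, all act in fatty acid synthesis. ACC, acetyl-CoA carboxylase, which makes the building block of fatty acids, read 4.31, 4.28 and 3.97 on the P-R-R arrays and 3.93, 3.70 and 3.32 on the R-R-R arrays, a difference of 0.54 ± 0.17 (0.49 ± 0.19 without replicate 2). The fatty acid synthase gene FASN1 differed by 0.52 ± 0.17 and FASN2 by 0.52 ± 0.20, and the desaturase gene Desat1 by 0.45 ± 0.18. Without replicate 2 these values were 0.51 ± 0.19, 0.56 ± 0.23 and 0.51 ± 0.21. FASN1 overlapped by 1 array pair, at 5.73 on P-R-R replicate 3 and 5.79 on R-R-R replicate 2, and the other 3 genes did not overlap. On the 9 arrays of rich-raised F0 and F1 males (P-R, R-R and R) ACC ran from 4.02 to 4.58. All 3 R-R-R arrays and 1 P-R-R array lay below that range. FASN1, FASN2 and Desat1 each had 1 R-R-R array outside their range, and Desat1 had 1 P-R-R array outside as well.

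**Figure D3:**
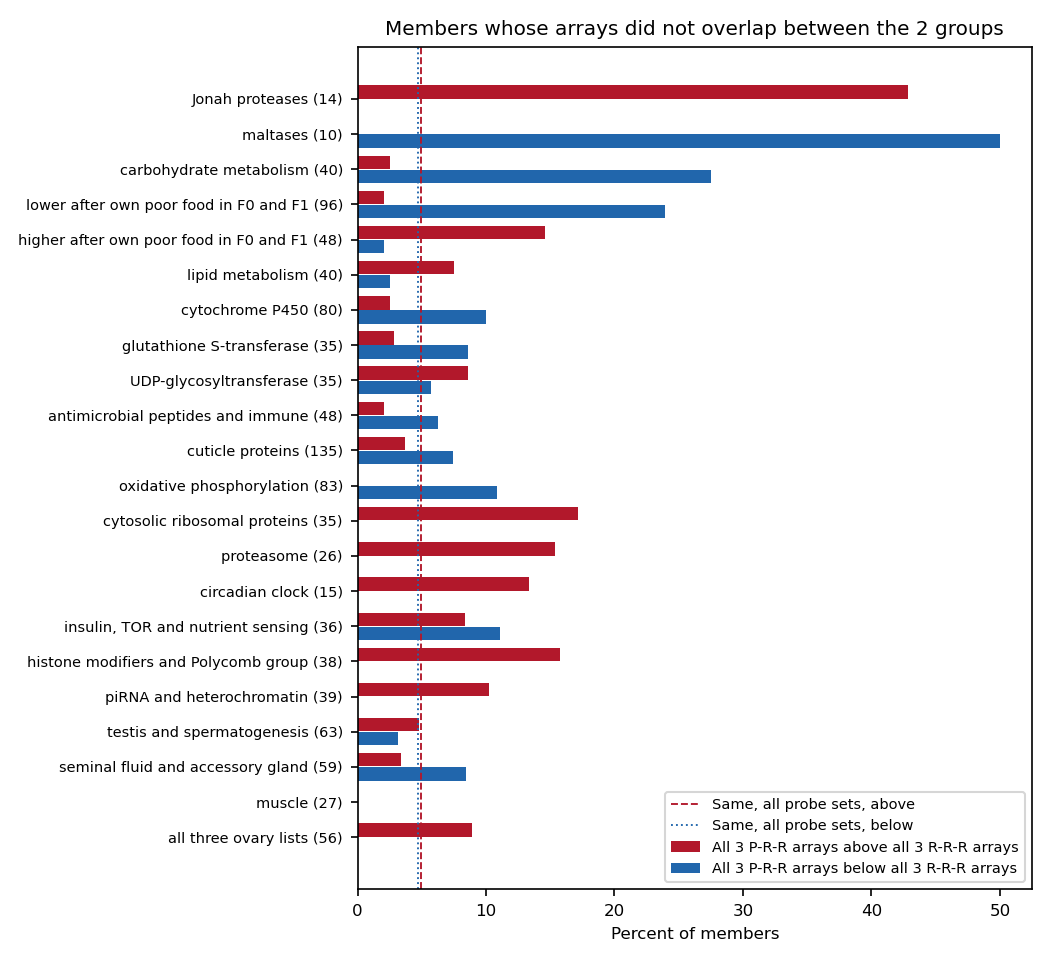
Percent of the members of each gene list whose 3 P-R-R arrays all lay above (red) or all below (blue) the 3 R-R-R arrays, with the number of members in brackets and the shares over all probe sets, 4.92% above and 4.69% below, as broken lines. Jonah proteases (42.9% above) and maltases (50% below) stand out on opposite sides.

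Differences of detoxification genes were small and more often below than above 0. Over 150 P450, glutathione S-transferase and UDP-glycosyltransferase genes, 100 differences were below 0 with all arrays and 98 without replicate 2, against 48.6% and 50.6% of all probe sets. Groups that did not overlap were found for 13 lower (8.67%) and 6 higher (4%) members, or 26 and 7 without replicate 2, and the median was -0.11 with all arrays and -0.10 without replicate 2. The glutathione S-transferases carried the most even shift, with 27 of 35 differences below 0 and a median of -0.15, or -0.13 without replicate 2. In both families R-R-R had the highest mean of the 5 rich-raised groups. The P450 list averaged 1.78 ± 0.10 in P-R-R and 1.9 ± 0.01 in R-R-R males (SD, n = 3 each), and the 3 R-R-R arrays (1.89 to 1.91) lay above those of P-R, R-R and R males, the highest of which was 1.87. The glutathione S-transferase list averaged 2.22 ± 0.08 in P-R-R and 2.42 ± 0.18 in R-R-R males, against 2.25 ± 0.06 in P-R, 2.27 ± 0.06 in R-R and 2.26 ± 0.09 in R males, with the lowest R-R-R array (2.22) among theirs.

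Cyp6g2 encodes a cytochrome P450 whose overexpression is known to give insecticide resistance. It read 1.24, 1.48 and 1.11 on the P-R-R arrays and 2.26, 1.79 and 2.20 on the R-R-R arrays, a difference of -0.81 ± 0.16 (limma adjusted p = 0.0988) with all arrays and -0.91 ± 0.17 (adjusted p = 0.203) without replicate 2. The P-R-R values and 1 R-R-R value lay below 2, and the groups were 0.31 apart at the closest. Cyp6a23 read 3.85, 3.58 and 2.76 on the P-R-R arrays and 4.74, 4.03 and 4.35 on the R-R-R arrays (difference -0.98 ± 0.28, and -1.07 ± 0.31 without replicate 2). Cyp4e3, below 2 on all 6 arrays, differed by -0.92 ± 0.19, and by -0.93 ± 0.21 without replicate 2. Cyp12d1-d differed by -0.75 ± 0.30 and -0.80 ± 0.34, with overlapping groups.

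GstE7, a glutathione S-transferase of the epsilon class, read 0.95, 2.15 and 1.51 on the P-R-R arrays and 2.64, 2.72 and 2.30 on the R-R-R arrays, a difference of -1.02 ± 0.33, and -1.32 ± 0.34 without replicate 2. GstD2, of the delta class, had a similar difference of -1.03 ± 0.48, and -1.36 ± 0.52 without replicate 2, but its arrays overlapped: 2.20, 3.69 and 3.25 on the P-R-R arrays and 4.44, 2.62 and 5.18 on the R-R-R arrays. GstE8 and GstD3 differed by -0.56 ± 0.22 and -0.60 ± 0.22 with all arrays, where both overlapped, and by -0.76 ± 0.24 and -0.66 ± 0.24 without replicate 2, where GstE8 did not. Among the UDP-glycosyltransferases, which attach sugars to small molecules, Ugt35C1 (-0.54, and -0.56 without replicate 2) and Ugt302K1 (-0.67 and -0.66) were lower on all 3 P-R-R arrays and dim, and Ugt35B1 was higher, at 4.75, 4.39 and 4.87 on the P-R-R arrays and 4.15, 4.38 and 4.27 on the R-R-R arrays (0.40, and 0.54 without replicate 2).

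Among the immune genes single members stood on both sides. Drs encodes drosomycin, an antifungal peptide of the Toll pathway, and read 5.21, 4.60 and 4.23 on the P-R-R arrays and 3.99, 3.32 and 3.72 on the R-R-R arrays. Its difference was 1.00 ± 0.25 (limma adjusted p = 0.243), and 1.04 ± 0.28 without replicate 2. BomS6, a short bomanin peptide gene that is also a Toll target, lay the other way, at 3.60, 3.65 and 3.13 on the P-R-R arrays and 4.90, 4.05 and 4.39 on the R-R-R arrays (difference -0.99 ± 0.22, and -1.08 ± 0.24 without replicate 2). Over 48 immune genes, 1 was higher and 3 were lower without overlap (3 and 5 without replicate 2), and the median was -0.00 with all arrays and -0.05 without replicate 2.

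Cuticle genes as a group lay near the shares of all probe sets. Of 135, 5 (3.70%) were higher and 10 (7.41%) lower without overlap, and without replicate 2 there were 12 higher and 13 lower, with medians of -0.01 and -0.03. Acp1, an adult cuticle protein gene, read 3.86, 3.62 and 4.71 on the P-R-R arrays and 2.97, 3.11 and 2.41 on the R-R-R arrays, a difference of 1.23 ± 0.39, and 1.46 ± 0.43 without replicate 2. Vajk2, of a small family of cuticle proteins, read 4.10, 4.22 and 4.24 on the P-R-R arrays and 2.65, 2.61 and 4.08 on the R-R-R arrays, so that 1 R-R-R array came within 0.02 of the P-R-R group and the standard error was wide (1.07 ± 0.59, and 1.06 ± 0.66 without replicate 2). The chitin-binding gene obst-A and the cuticle gene Cpr100A differed by 0.71 ± 0.33 and 0.61 ± 0.38, and by 0.76 ± 0.37 and 0.67 ± 0.43 without replicate 2. These 4 had the widest differences of the list without that array.

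The widest difference of the 20 genes belonged to CG6283, at 3.35, 2.38 and 1.80 on the P-R-R arrays and 4.91, 4.91 and 4.61 on the R-R-R arrays. It was -2.30 ± 0.48 (limma adjusted p = 0.0990), and -2.24 ± 0.54 (adjusted p = 0.317) without replicate 2. With the 12 F2 arrays alone the adjusted p was 0.0479. CG4757 was the widest on the higher side, at 3.34, 2.17 and 2.0 on the P-R-R arrays and 1.02, 0.89 and 0.69 on the R-R-R arrays. Its difference was 1.64 ± 0.32 (limma adjusted p = 0.0988), and 1.80 ± 0.35 (adjusted p = 0.203) without replicate 2.

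The remaining genes of this selection had smaller differences. On the higher side they were CG9281 (0.71, and 0.57 without replicate 2), CG8042 (0.65 and 0.82), HPS4 (0.43 and 0.50), whose product is known from other animals as part of a complex for lysosome-related organelles, and CG12307 (0.40, and 0.60 without replicate 2). CG12307 overlapped with all arrays because replicate 2 lay at the R-R-R level. On the lower side were the tetraspanin gene Tsp42Ec (-0.75 and -0.93), CG7488 (-0.75 and -0.82), CG13659 (-0.73 and -0.87) of the ecdysteroid kinase-like family, and CG31673 (-0.47 and -0.54). Tsp42Ec overlapped with all arrays because P-R-R replicate 2 (1.79) lay just above the lowest R-R-R array (1.78).

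The levels of the other rich-raised groups can be set beside those of the 20 genes. Those groups are F0 and F1 males, while P-R-R and R-R-R are F2. A shift between generations therefore cannot be told apart from an unusual F2 group. Over the 9 arrays of P-R, R-R and R males, CG4757 ran from 0.55 to 1.95, with a median of 1.05. All 3 P-R-R arrays were above that range and all 3 R-R-R arrays were inside it. Of the 20 genes CG4757 was the only one with this pattern, and 4 of the 20 had all 3 P-R-R arrays outside the range of the 9 arrays, the others being Jon25Bii (2.5 to 3.57), Jon65Ai (2.92 to 3.56) and Drs (2.66 to 3.96), each with 1 R-R-R array outside it as well. In contrast 3 of the 20 had all 3 R-R-R arrays outside, namely HPS4, CG12307 and CG7488. For tobi the 9 arrays ran from 5.5 to 6.94, with 1 P-R-R array below and 2 R-R-R arrays above. For Amy-p they ran from 5.21 to 6.5, with 1 array of each group outside. CG6283 ran from 3.02 to 5.94 in the 9 arrays, and 2 P-R-R arrays lay below.

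The same levels can be set side by side for the 2 lists of digestive enzymes. The mean of the 14 Jonah genes was 4.32 to 4.82 on the P-R-R arrays and 3.97 to 4.03 on the R-R-R arrays. It was 3.81 to 4.08 on P-R arrays, 3.91 to 4.26 on R-R arrays and 3.67 to 3.80 on R arrays, so that the P-R-R arrays were above all 12 other rich-raised arrays. They overlapped with those of 4 of the 5 poor-raised groups, 4.48 to 4.81 in P-R-P, 4.10 to 4.54 in R-R-P, 4.10 to 4.44 in F0-Poor_F1-Poor and 4.11 to 4.34 in P males, and lay above those of F0-Rich_F1-Poor males, 4.06 to 4.26. The mean of the 10 maltases was 3.0 to 3.65 on the P-R-R arrays and 3.80 to 3.90 on the R-R-R arrays. It ranged from 3.46 to 3.73 on P-R arrays, 3.59 to 4.21 on R-R arrays and 3.02 to 3.70 on R arrays, so both groups lay within the range of the other rich-raised arrays apart from the lowest P-R-R array, which was the one with ovary transcripts.

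**Figure D4:**
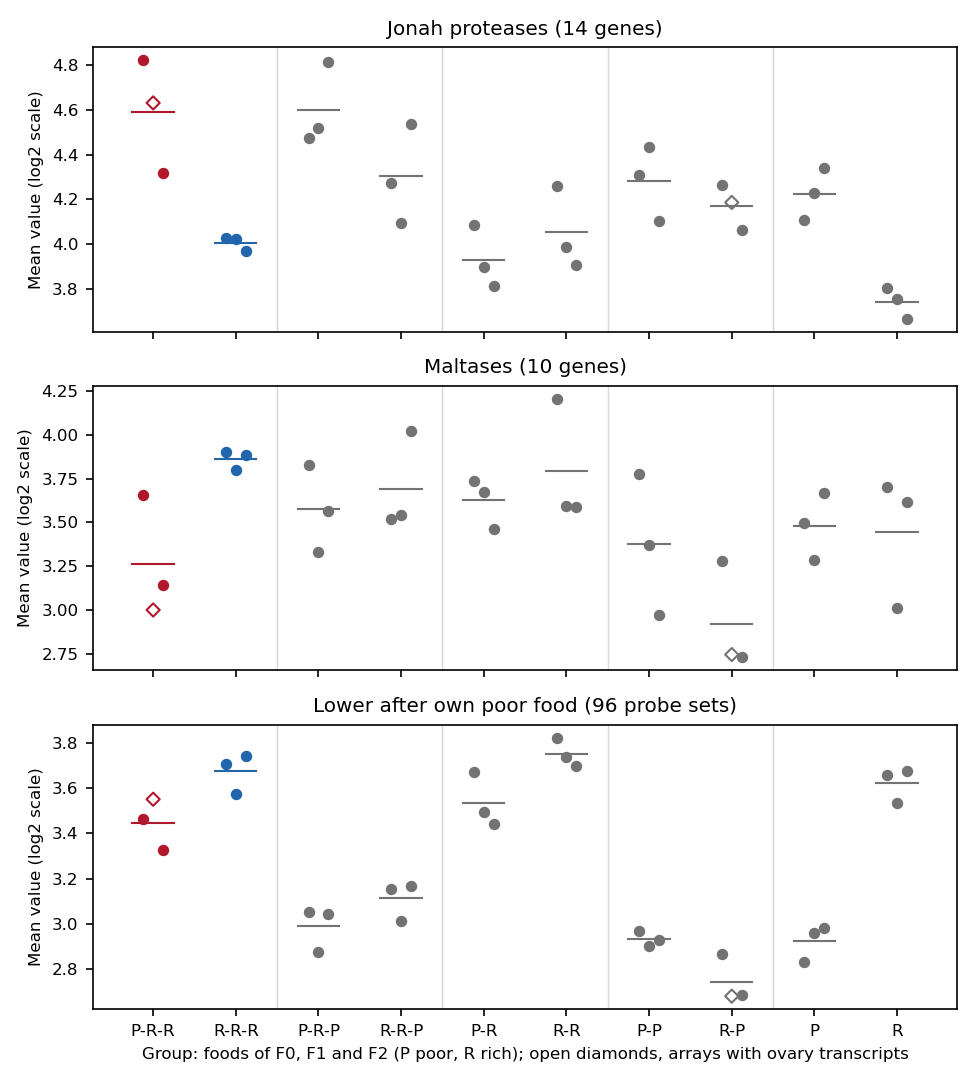
Mean value on the log2 scale of 14 Jonah proteases, 10 maltases and the 96 probe sets lower after own poor food, for each array of the 10 groups, with a line at each group mean and open diamonds for the 2 arrays with ovary transcripts. P-R-R arrays lie at 4.32 to 4.82 in the first panel, above the other rich-raised groups. In the last they lie at 3.33 to 3.55, where they overlap with P-R and R arrays and lie above every poor-raised array.

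Genes that answer to a fly's own food gave a further reading. Averaged over the 3 pairs of poor-raised and rich-raised groups in F0 and F1, none of whose arrays is in the F2 comparison, limma called 144 probe sets (0.941%) for own poor against rich food, 48 higher and 96 lower. Of the 96 that were lower after own poor food, 23 (24.0%) were also lower on all 3 P-R-R than on any R-R-R array and 2 were higher, or 35 and 4 without replicate 2. Without that array, 75 of the 96 differences were below 0, against 50.6% of all probe sets, and the median was -0.21 (-0.18 with all arrays). Leaving out single arrays of the 2 groups moved this median between -0.21 and -0.14. None of these F2 differences passed the test on its own.

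The mean level of the 96 probe sets was 3.45 ± 0.11 in P-R-R and 3.68 ± 0.09 in R-R-R males (SD, n = 3 each). The 3 P-R-R arrays (3.33 to 3.55) lay below the 3 R-R-R arrays (3.58 to 3.74) by a narrow margin. They overlapped with the P-R arrays (3.44 to 3.67) and with the R arrays (3.54 to 3.68), and lay below the R-R arrays (3.70 to 3.83). The P-R, R and R-R arrays were among those used to define the list. The own-food gap was wider, with 2.92 ± 0.08 in P and 3.62 ± 0.08 in R males, but these arrays also served to choose the list. Among the F2 males, which did not, the poor-raised groups averaged 3.11 ± 0.09 (R-R-P) and 2.99 ± 0.10 (P-R-P).

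Among the single genes, CG16898 of the ecdysteroid kinase-like family, the gene with the lowest p for own food, read 5.02, 5.19 and 5.05 on the P-R-R arrays and 6.23, 5.51 and 5.80 on the R-R-R arrays. The difference was -0.76 ± 0.27 (limma adjusted p = 0.452), and -0.81 ± 0.31 without replicate 2, against an own-food difference of -2.96 ± 0.16. CG13659, Cyp6a23, GstE7 and Mal-A7, described above, are members of the 23. Other strong own-food genes had smaller differences: AOX1, an aldehyde oxidase gene, differed by -0.06 (-0.12 without replicate 2), Cyp6d2 by -0.18 (-0.37), Arc1, which encodes a capsid-like neuronal protein, by -0.34 (-0.54), and Ugt37A3 by 0.38 (0.38), all with overlapping groups.

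Of the 48 probe sets higher after own poor food, 7 (14.6%) were higher on all 3 P-R-R arrays and 1 was lower, or 10 and 1 without replicate 2. Their median was 0.02 with all arrays and 0.07 without replicate 2, and it was -0.02 without P-R-R replicate 1, without R-R-R replicate 2 or with quantile normalization, and below 0 also with median centring. The 7 included Acp1, CG12374, Jon65Ai and Jon44E. CG43114 and Lsp2, a larval serum protein gene of the fat body, had differences of -0.31 (-0.36 without replicate 2) and -0.72 ± 0.37, and both overlapped. Lsp2 had its lowest value, 5.40, on the ovary array, and differed by -0.37 ± 0.39 without it.

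**Figure D5:**
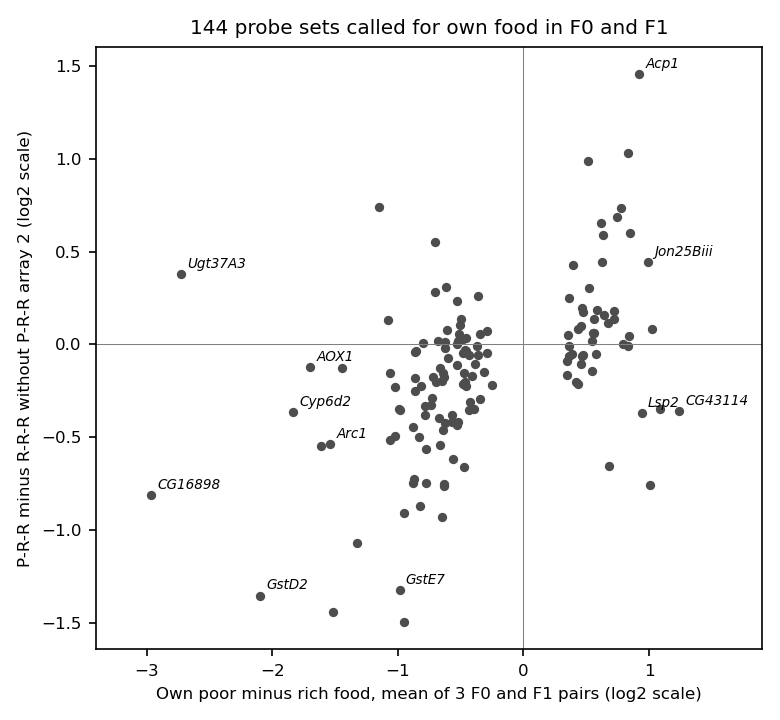
For the 144 probe sets called for own food in F0 and F1, the own-food difference (poor minus rich, horizontal) and the grandparental difference P-R-R minus R-R-R without P-R-R replicate 2 (vertical), both on the log2 scale. On the left, 75 of 96 points lie below 0, with CG16898 at -2.96 and -0.81, and on the right 30 of 48 lie above 0.

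The same grandparental contrast can be made in F2 males raised on poor food, P-R-P against R-R-P, which shares no array with the first. Limma called 0 of 15309 probe sets there (0%), with 785 at an unadjusted p under 0.05 and a lowest adjusted p of 0.371. All 3 P-R-P arrays lay above all 3 R-R-P arrays for 4.32% of probe sets and below them for 7.28%. The difference between the 2 contrasts, tested as an interaction, also gave 0 calls (0%), with 1169 at an unadjusted p under 0.05 and a lowest adjusted p of 0.299. Without R-R-P replicate 3 there was 1 call in each, and without P-R-P replicate 3 there were 2 for the interaction.

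Of the 20 genes, 12 had the same sign in the poor-raised pair, against 47.2% of all probe sets, 3 were separated without overlap in the same direction and 3 in the opposite one. Jon25Bii (0.37) and Cyp6g2 (-0.37) were among the first, and CG8042 (-0.30), CG12307 and CG31673 (0.31) were the opposite ones. The differences of tobi (-0.20), Amy-p (-0.22), CG4757 (-0.04) and Drs (-0.14) in poor-raised males were nearer to 0 than in rich-raised males. These genes were picked by their difference in rich-raised males, so a smaller one in another pair can come from the choice alone. Their interactions did not pass the adjusted threshold.

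Counts in the poor-raised pair are to be read against 4.32% higher and 7.28% lower over all probe sets. Jonah proteases had a median difference of 0.28 in P-R-P against R-R-P, with 3 of 14 higher and 0 lower without overlap. Maltases had a median of -0.00, with 1 of 10 lower without overlap, close to the share of all probe sets. The 96 probe sets lower after own poor food had a median of -0.11, with 19 lower and 2 higher without overlap. Of these 96, 6 (6.25%) were lower without overlap in both F2 pairs, against 0.32% of all probe sets. With 23 of the 96 lower in the rich-raised pair and 19 in the poor-raised pair, a larger share than 0.32% follows from these counts alone. Whether the 2 pairs share members beyond that was not tested. The 6 were CG16898 (-0.74 in poor-raised males), CG33301, mat, CG9312, the P450 gene Cyp309a1 and the globin gene glob1. All but CG16898 were named after their values were seen. Of the 48 probe sets higher after own poor food, 1 (2.08%), Jon44E, was higher without overlap in both pairs, against 0.15% of all probe sets. The 4 lipid genes named above were also picked by their difference in rich-raised males. In the poor-raised pair they differed by -0.45 (ACC), -0.34 (FASN2), -0.28 (Desat1) and -0.22 (FASN1). The 40 lipid genes had a median of -0.07 there, and none of the 4 passed the test there or for the interaction.

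One generation earlier, the food of the parents in rich-raised F1 males, P-R against R-R, gave 8 calls in limma (0.0523%), 7 higher and 1 lower. Of the 7, 4 probe sets without a symbol shared 1 set of values, so that the calls stand for 5 distinct readings, 4 higher and 1 lower. The count was 0 without R-R replicate 1, R-R replicate 3 or P-R replicate 2 and 41 without R-R replicate 2. Rab9Db, of the Rab GTPase family and the 1 lower call, differed by -1.14 ± 0.18 there and by -0.08 in the F2 comparison, where it read 0.78, 0.53 and 1.06 on the P-R-R arrays and 0.83, 0.64 and 1.13 on the R-R-R arrays. Of the 20 genes named above, 10 had the same sign in P-R against R-R, close to the 48.8% of all probe sets. CG9568, one of the genes picked for its values elsewhere in the series, differed by -0.08 in the F2 comparison and by 0.01 without replicate 2.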

How the data were processed

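RNA of adult virgin males was measured on 30 Affymetrix Drosophila Gene 1.0 arrays, 3 in each of 10 diet histories, grouped by the labels. The authors deposited a single value for each probe set on each array. The submitters' processing notes name GCRMA, and the values were taken here as log2. The log base is not stated in the labels or file headers. Natural logarithms would make each difference 1.44 times larger and leave every p unchanged. Normalization between arrays brings array medians together, and 3 arrays a group limit the precision.

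The table was analysed whole: limma 3.58.1 (R 4.3.3; lmFit, eBayes, two-sided tests) estimated the mean of each of the 10 groups, with no covariate or filter and a spread pooled across groups. Benjamini-Hochberg adjustment covered all 15309 probe sets. The fit was tested on simulated data. Platform annotation gave 1 gene symbol for 13441 probe sets, several for 555 and none for 1313. Only the first were named, and a gene with several probe sets was represented by the one with the highest mean. The closest 2 arrays differed by 0.179 on average, so none was a duplicate.

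The 33 gene lists, the members of the comparison and the rule for named genes were chosen with earlier results of these data known. Figures were drawn with matplotlib 3.10.9. Named were the 10 genes with the lowest p in each direction without P-R-R replicate 2 among those with a group mean above 2, a set of 15 genes that stood out elsewhere in the series, and of each list described up to 4 members with the widest difference without that array. Genes outside this rule are marked. Lists are described by counts and medians, without a test of the list. Alternatives were the omission of single arrays, fits to 6 or 12 arrays, a replicate block, quantile normalization, median centring, a filter on dim probe sets, array weights, an ovary covariate and a trended, robust spread. No genome was used, and no sequences are given.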

Additional observations from a re-analysis of the deposited data

How the results depend on the processing

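The count of 0 calls for P-R-R against R-R-R stayed at 0 in limma under the omission of both arrays with ovary transcripts, the fit to 6 arrays, quantile normalization, median centring, the filter on dim probe sets, array weights, the ovary covariate and the trended, robust spread. It was 1 with the 12 F2 arrays and ranged from 0 to 9 with 1 array left out, and the cause was not tested. Counts at an unadjusted p under 0.05 were 1312 of 15309 in the fit reported, 704 of 15309 with 6 arrays and 476 of 4720 after the filter. The filtered count is smaller, but it is a larger share of the probe sets tested. With 1 array left out, calls ranged from 0 to 1 in the poor-raised pair, 0 to 2 for the interaction, 118 to 198 for own food in F0 and F1 and 0 to 41 for P-R against R-R, where the filter on dim probe sets gave 2. The omissions outside the F2 rich-raised pair were added after seeing the data. Replicate numbers were not treated as pairs: deviations of same-numbered arrays correlated at 0.12, 0.045 and 0.030, and each P-R-R array correlated best with its own number, a hint from the data and not from the design. With the replicate as a block the count of calls was 0 for all 3 F2 contrasts, 159 for own food and 8 for P-R against R-R.

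Alternative values were counted for 92 genes, most but not all of which are named in the text. Of 1541 such values, 1503 kept sign and side of the threshold, 13 passed it and 25 turned sign, in 10 genes, and the cause was not tested. The 13 belonged to Jon25Bii, CG12374, Jon65Aiii, Jon65Aiv, CG4757, Cyp6g2 and CG6283, and to genes not described above: CG11912, CG1371, CG42258, CG6805, CG14500 and CG30026. With 1 array left out, AOX1 ranged from -0.17 to 0.11, Arc1 from -0.54 to 0.047, CG9568 from -0.35 to 0.11, Rab9Db from -0.21 to 0.055, CG43114 from -0.72 to 0.018, Ugt37A3 from -0.14 to 0.94, Cyp6d2 from -0.51 to 0.13, Yp1 from -0.13 to 3.04, Yp2 from -0.15 to 4.31 and Yp3 from -0.34 to 2.86. The lowest values of the 3 yolk protein genes were those without P-R-R replicate 2 and held without both ovary arrays, where CG9568 was 0.0067 and Rab9Db 0.053. The ovary covariate gave Yp2 -0.13, Yp3 -0.12 and CG9568 0.016, array weights gave CG9568 0.022, and the block without replicate 2 gave Rab9Db 0.070 and Yp3 -0.19. The median difference of the Jonah proteases ran from 0.53 to 0.84 and that of the maltases from -0.88 to -0.62 over the alternatives run on lists, which were chosen after seeing the data.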

Other observations

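Further gene groups are given here, with medians and counts of lists with all arrays and without P-R-R replicate 2. Single genes are given with all arrays only, except where another setting is named. The 15 circadian clock genes had a median difference of 0.19, and 0.14 without replicate 2, and the 27 muscle genes 0.03 and 0.12. Of the 15 clock genes 2 (13.3%) were higher without overlap and 0 lower, or 3 and 1 without replicate 2. Over all probe sets the shares were 4.92% higher and 4.69% lower, or 9.81% and 9.14% without replicate 2, and 15 genes make a short list. The 2 were cwo and tim. A repressor of the clock, cwo read 3.26, 3.16 and 3.20 on the P-R-R arrays and 2.59, 2.60 and 2.91 on the R-R-R arrays. The partner of period, tim, read 4.55, 4.42 and 4.47 on the P-R-R arrays and 3.21, 3.94 and 4.40 on the R-R-R arrays. On the 9 arrays of P-R, R-R and R males cwo ran from 2.69 to 3.24 and tim from 4.05 to 4.72. For each gene 2 R-R-R arrays lay below that range, and 1 P-R-R array lay above it for cwo. The clock gene vri differed by 0.42 and per by -0.31, both with overlap, and the hour at which the flies were frozen is not given in the sources used here. Among 36 insulin, TOR and nutrient-sensing genes 3 (8.33%) were higher and 4 (11.1%) lower without overlap, or 4 and 5 without replicate 2, to be read against the same shares. CCHa2, a peptide hormone gene of the fat body and gut that answers to nutrients, read 4.08, 3.90 and 4.19 on the P-R-R arrays and 4.54, 4.55 and 4.63 on the R-R-R arrays. Ilp7, an insulin-like peptide gene, was dim and differed by -0.41. Metallothionein MtnE was higher on all 3 P-R-R arrays (0.66, 0.62 and 0.60) than on the R-R-R arrays (-0.02, 0.28 and 0.28), at dim levels, and Tsf2, a transferrin gene, differed by 0.55. MtnD differed by 1.03 ± 0.42, with P-R-R replicate 3 (2.41) inside the R-R-R range. Without replicate 2 no difference of the 17 metallothionein and iron genes was above 0.79.

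Several lists of genes used by most cells had medians above 0 that were smaller without P-R-R replicate 2, and oxidative phosphorylation had one below 0. The median difference of 35 cytosolic ribosomal protein genes was 0.14 and 0.09, that of 26 proteasome genes 0.24 and 0.12, that of 38 histone modifier genes 0.16 and 0.08, and that of 32 cell cycle genes 0.28 and -0.03. Of 83 oxidative phosphorylation genes, 0 were higher and 9 (11%) lower without overlap, or 3 and 11 without replicate 2, with medians of -0.10 and -0.04. For the ribosomal proteins, 6 of 35 (17.1%) were higher and 0 lower without overlap in P-R-R, against 4.92% and 4.69% of all probe sets. Without replicate 2 there were 8 and 1, against 9.81% and 9.14%. That array was the highest of the 6 for 27 of the 35 genes. In P-R-P against R-R-P 0 were higher and 13 lower, against 4.32% and 7.28% of all probe sets. Testis genes moved the other way, with a median of -0.03 with all arrays and 0.07 without replicate 2. S-Lap8, Tpl94D and wa-cup had the largest positive differences without that array, 0.68, 0.55 and 0.54. With all arrays the groups overlapped for all 3 genes, and S-Lap8 differed by 0.43. Of 9 Y-linked fertility genes, kl-3 and Pp1-Y2 were lower on all 3 P-R-R arrays, at levels under 1. None of these genes passed the limma test at an adjusted p under 0.05.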
